A study of Mus musculus with 52 samples.

Results

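The genes described here lie in 2 young clusters of zinc finger genes of the mouse genome, on distal chromosome 2 and on chromosome 4. A gene was a member when its start lay between positions 175000000 and 178500000 of chromosome 2 or between 145000000 and 147900000 of chromosome 4 (GRCm38) and its name began with Zfp or Gm or was Smarca5-ps. These limits gave 123 members of the 39144 genes listed in either deposited table, 51 on chromosome 2 and 72 on chromosome 4. The regions were chosen by measured values, namely the Tug1-/- over wild-type differences of these same tables, so the differences given here are a description of the members and not evidence about them. Of the members, 51 were annotated as protein-coding, 45 as processed pseudogenes, 15 as unprocessed pseudogenes and 8 as long intergenic RNAs. The other 4 were transcribed pseudogenes, Smarca5-ps among them, and an antisense RNA.

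RNA-seq compared wild-type mice with Tug1-/- mice, homozygous for the Tug1tm1.1Vlcg allele, in which a lacZ cassette replaces the gene body of the long noncoding RNA Tug1. Mice and embryos of the tissues other than brain were male. Of the 52 samples of the series, 46 lie behind the group means used here. Testes came from 4 wild-type, 4 Tug1-/- and 3 rescue mice and prostate from 3 wild-type and 2 Tug1-/- mice. For spleen, liver, heart, eyes and embryonic fibroblasts (MEFs), 3 samples of each genotype were sequenced. The brain means come from libraries outside the series, whose group sizes, strain, sex and ages are not given here. The series also holds 6 samples of F1 hybrid testes, which were not analysed here. Rescue mice were Tug1-/- animals that also carried tg(Tug1), a randomly integrated transgene without the 5′ part of the RNA, and CAGs-rtTA3, which switches it on in mice fed doxycycline. The wild-type and Tug1-/- groups of the tissues other than testes and brain share a C57BL/6J/129S6 label (N3-C57BL/6J, no Neo). Such a label of mixed strain does not give the strain of origin of the regions in single animals. In testes the label reads C57BL/6J, no Neo for wild type, while Tug1-/- and rescue mice are labelled C57BL/6J, Neo, LacZ. The study's methods state that the neomycin resistance gene was removed with Cre before the colony was expanded, so label and methods are in conflict. If Neo was present in those mice, it cannot be told apart from genotype in testes. The lacZ cassette goes with the Tug1-/- genotype in every tissue. MEFs were grown from male littermate embryos and used at passage 2. Ages are not given in the labels.

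KRAB zinc finger proteins, the main product of such clusters, bind DNA through a row of C2H2 fingers and recruit the corepressor Trim28 through their KRAB domain. Trim28 in turn brings the histone methyltransferase Setdb1 and heterochromatin proteins, and many of the DNA sequences silenced in this way are transposable elements. The clusters grow by tandem duplication, so neighbouring genes are near copies of each other and are accompanied by decayed copies.

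The promoters show this kinship, and those of members with unlike differences between genotypes are printed for that reason. RefSeq (GRCm38.p6) gave 43 promoters for 36 members, each from 250 bases before to 50 bases after a transcription start. Capitals mark the letters of the CCAAT box, of the GC box (GGGCGG) and of the TATA box (TATAAA) on either strand, and motifs that touch or overlap are capitalised together. Zfp970 (chr2:177464492-177464791), Gm14322 (chr2:177759038-177759337) and Zfp972 (chr2:177925601-177925900) were higher in Tug1-/- than in wild-type samples in most tissues, while Gm14326 (chr2:177957239-177957538) was level.
Zfp970 (+ strand): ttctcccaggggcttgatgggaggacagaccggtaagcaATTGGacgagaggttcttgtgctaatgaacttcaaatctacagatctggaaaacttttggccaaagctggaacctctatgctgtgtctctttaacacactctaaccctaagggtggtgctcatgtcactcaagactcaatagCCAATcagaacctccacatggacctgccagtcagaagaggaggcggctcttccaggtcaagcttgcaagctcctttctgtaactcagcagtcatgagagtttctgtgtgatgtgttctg
Gm14322 (+ strand): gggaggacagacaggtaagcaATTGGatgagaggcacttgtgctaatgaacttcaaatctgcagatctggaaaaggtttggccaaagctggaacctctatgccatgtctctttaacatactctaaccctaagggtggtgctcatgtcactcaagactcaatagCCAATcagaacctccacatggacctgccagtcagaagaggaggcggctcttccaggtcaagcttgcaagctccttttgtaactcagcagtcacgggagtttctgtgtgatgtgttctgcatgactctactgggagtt
Zfp972 (- strand): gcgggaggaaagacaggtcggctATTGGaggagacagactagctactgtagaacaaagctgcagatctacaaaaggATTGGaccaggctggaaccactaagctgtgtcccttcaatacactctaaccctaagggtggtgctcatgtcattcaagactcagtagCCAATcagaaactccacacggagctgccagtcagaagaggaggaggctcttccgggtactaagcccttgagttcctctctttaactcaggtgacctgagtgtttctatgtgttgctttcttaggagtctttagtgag
Gm14326 (- strand): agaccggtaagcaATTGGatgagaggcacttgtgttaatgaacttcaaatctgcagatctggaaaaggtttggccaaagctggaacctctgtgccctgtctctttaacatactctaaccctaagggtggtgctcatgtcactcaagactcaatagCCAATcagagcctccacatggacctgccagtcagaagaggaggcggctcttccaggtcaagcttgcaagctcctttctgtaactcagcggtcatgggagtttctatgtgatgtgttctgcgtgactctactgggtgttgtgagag
The Gm14322 and Gm14326 promoters were identical at 282 of 292 aligned bases (96.6%). Their log2 ratios over 8 tissues ran from -0.03 to 1.17 and from -0.08 to 0.20, with Gm14322 past 2-fold in MEFs only. Only 27.4% of the stretches of Gm14322 transcripts as long as 1 sequencing read occurred in no other annotated gene. Any part of promoter sequence in the differences between genotypes was not tested. Zfp972 was the most distant of the 4, with 77.7% identity to Gm14326 over 287 aligned bases. All 4 shared an unbroken run of 30 bases, actctaaccctaagggtggtgctcatgtca. This run was present in 18 of the 24 promoters of chromosome 2 members, and in 33 of all 32851 mouse promoters of the table.

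On chromosome 4, Zfp979 (chr4:147642459-147642758) and Zfp982 (chr4:147492167-147492466) were lower in Tug1-/- liver, and Zfp984 (chr4:147809739-147810038) had log2 ratios between -0.16 and 0.33 over 8 tissues.
Zfp979 (- strand): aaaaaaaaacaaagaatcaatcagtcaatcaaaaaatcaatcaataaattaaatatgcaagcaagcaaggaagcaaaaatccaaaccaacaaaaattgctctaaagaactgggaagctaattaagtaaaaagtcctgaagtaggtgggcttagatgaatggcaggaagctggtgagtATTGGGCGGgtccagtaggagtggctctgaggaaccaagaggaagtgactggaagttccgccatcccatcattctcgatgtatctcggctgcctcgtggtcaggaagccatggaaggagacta
Zfp982 (+ strand): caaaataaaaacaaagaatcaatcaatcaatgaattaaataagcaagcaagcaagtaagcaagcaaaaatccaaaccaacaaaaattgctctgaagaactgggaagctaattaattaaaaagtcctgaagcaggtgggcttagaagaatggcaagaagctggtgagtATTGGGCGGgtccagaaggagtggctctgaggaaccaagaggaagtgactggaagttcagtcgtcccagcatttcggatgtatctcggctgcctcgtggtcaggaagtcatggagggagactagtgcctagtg
Zfp984 (- strand): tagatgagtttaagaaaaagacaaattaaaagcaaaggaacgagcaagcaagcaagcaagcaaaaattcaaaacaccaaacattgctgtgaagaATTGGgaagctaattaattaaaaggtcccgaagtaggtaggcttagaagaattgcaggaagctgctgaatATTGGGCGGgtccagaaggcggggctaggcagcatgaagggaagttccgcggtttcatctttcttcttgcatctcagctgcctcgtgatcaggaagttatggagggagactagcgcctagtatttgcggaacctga
RefSeq gave 3 promoters for Zfp982, and the one shown is that at the gene's own start in the deposited tables. The Zfp979 promoter and this one were identical at 264 of 288 aligned bases (91.7%), and each was about as far from that of Zfp984, at 80.7% and 82.6%. All 3 held the run tattgggcgggtccag of 16 bases, which occurred in 8 of the 19 promoters of chromosome 4 members and in 9 of all promoters. Over the whole set, CCAAT on either strand was found in 76.7% of member promoters and in 37.4% of all promoters. The GC box was found in 25.6% against 35.7%, and TATAAA in 4.65% against 13.6%. Member promoters held a median of 4 CpG dinucleotides and all promoters a median of 7. Members derived from one another are not independent examples of a motif, so these shares describe the families.

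The deposited values are the authors' group means in TPM, a level scaled to gene length and to the size of the library, with no values of single samples. No spread, interval or test could therefore be computed for any value below, and depth per library is unknown. A difference is given as the log2 ratio of the second group's mean to the first's after adding 0.1 TPM to each. A gene entered the counts when its mean over both groups was at least 0.5 TPM, and it counted as higher or lower when the ratio passed 2-fold. Levels of testes and of the other tissues come from separate tables, so levels set across that line may also differ by table. In whole tissues, fewer cells of a type and less RNA per cell cannot be told apart.

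Tug1 itself stood at 40.1 TPM in wild-type testes and 0.885 TPM in Tug1-/- testes. Its log2 ratio in the 8 tissues lay between -8.39 in spleen and -5.35 in testes. Rescue testes held 1.60 TPM of Tug1. Defining markers were present in every tissue, with the lowest of each tissue's 3 markers at 9.65 TPM in prostate and at 8606 TPM in eyes. All 3 seminal vesicle markers were higher in the Tug1-/- prostate means, Svs2 at 10039 and 30716 TPM, Svs5 at 9363 and 27896 TPM and Svs4 at 454 and 674 TPM in wild type and Tug1-/-. The B cell markers Cd79a and Ms4a1 were lower in the Tug1-/- spleen means, at 1295 and 947 TPM and at 533 and 415 TPM. The part of these cells in the prostate and spleen differences was not tested. The median log2 ratio of all genes was -0.11 in both eyes and spleen, 0.10 in heart and between -0.03 and 0.04 in the other tissues.

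Of the 123 members, 87 passed 0.5 TPM in at least 1 tissue, 32 on chromosome 2 and 55 on chromosome 4. The other 36 passed in none. A broad group of 15 members passed in all 8 tissues, all of them protein-coding, 12 on chromosome 2 and 3 on chromosome 4. In contrast, 29 members passed in testes alone. The deposited tables listed 112 members for testes and 107 for the other tissues.

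The 2 clusters differed most in brain and testes. The summed wild-type level of the chromosome 2 members was 201 TPM in brain, 152 TPM in eyes and 28.6 TPM in testes, the lowest of the 8 tissues. The summed wild-type level of the chromosome 4 members was 232 TPM in testes and at most 89.2 TPM elsewhere, that highest value outside testes being in spleen. The testes table listed 70 chromosome 4 members and the other tissues 19 to 44, so the sums cover unlike numbers of genes. The wild-type sums of the chromosome 2 members were 54.8 TPM in prostate, 69.6 TPM in liver, 82.6 TPM in heart, 83.7 TPM in MEFs and 84.0 TPM in spleen. Those of the chromosome 4 members were 20.9 TPM in liver, 30.7 TPM in heart, 31.5 TPM in brain, 58.5 TPM in eyes, 62.9 TPM in prostate and 64.1 TPM in MEFs. In liver the chromosome 2 sum was 108 TPM in Tug1-/- against 69.6 TPM in wild-type mice, a 1.54-fold difference and the widest of that cluster. In the same liver means the chromosome 4 sum was 13.9 TPM in Tug1-/- against 20.9 TPM in wild-type mice. Most of the liver gap on chromosome 2 lay in Zfp970 and Gm14403, and most of that on chromosome 4 in Zfp982, whose liver means are given below. Spleen was nearly level for both, with 84.0 and 82.2 TPM on chromosome 2 and 89.2 and 91.0 TPM on chromosome 4.

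**Figure D1:**
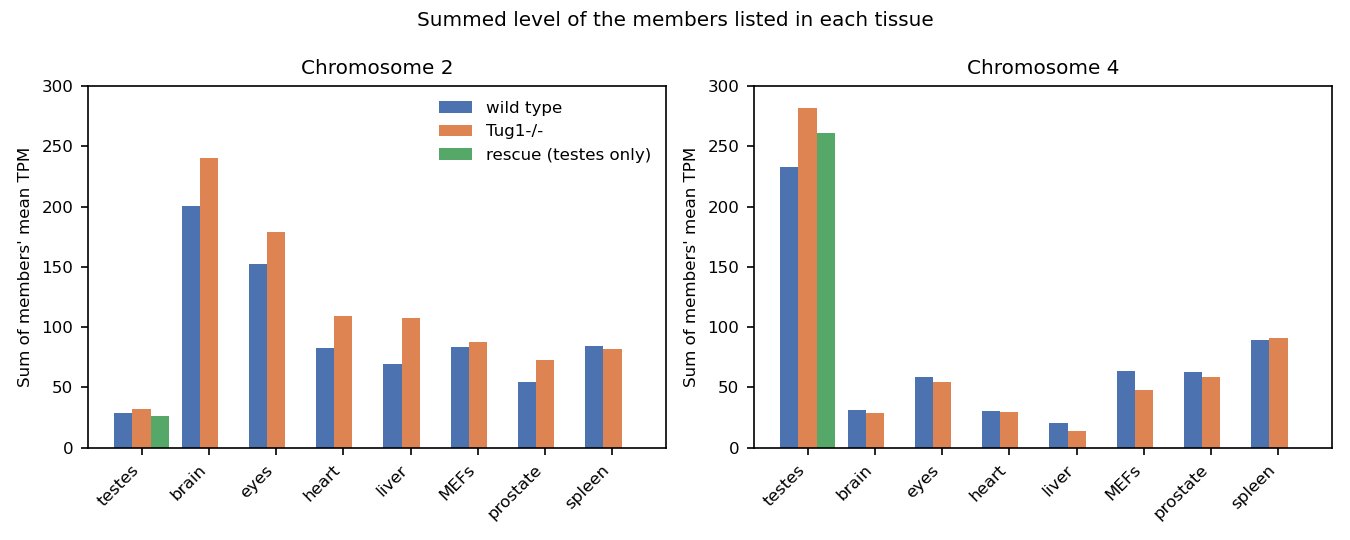
Bars give the summed group mean level (TPM) of the members listed in each tissue, for wild type, Tug1-/- and, in testes, rescue, with chromosome 2 on the left and chromosome 4 on the right. Chromosome 2 members were highest in brain (201 TPM in wild type) and chromosome 4 members in testes (232 TPM in wild type). No error bars are drawn because the tables hold means only.

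Past 2-fold, the chromosome 2 members differed in 1 direction and the chromosome 4 members in both. Of the 18 members past 2-fold in at least 1 tissue, 10 were higher in Tug1-/- samples and 8 lower, and none was higher in one tissue and lower in another. Over all 32335 genes above 0.5 TPM in some tissue, 10.4% were past 2-fold in at least 1 tissue, 4.29% only higher and 5.33% only lower. All 5 such members of chromosome 2 were higher, although Gm14407 in prostate and Gm14409 in eyes, at log2 ratios of -0.64 and -0.59, were lower by over 1.5-fold. On chromosome 4, 5 were higher and 8 lower. Over the 155 member-by-tissue values of chromosome 2 above 0.5 TPM, 12 were higher and 0 lower, and over the 142 of chromosome 4, 9 were higher and 11 lower. Over all genes, 1.28% of such values were higher and 1.47% lower. Most members stayed below 2-fold in every tissue. Of the 50 members above 0.5 TPM in at least 2 tissues, 9 passed 2-fold in at least 2, as did 2.24% of the 23602 such genes in all, and since the same contrasts chose the regions nothing is read from the difference.

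By tissue, the counts stood as follows beside the shares of all genes. In MEFs 6 of 37 members were higher and 4 lower, where 1.38% and 1.17% of all genes were. In prostate 5 of 35 were higher and 1 lower, against 2.26% and 1.2% of all genes. In eyes 3 of 46 were higher and 2 lower, against 0.98% and 1.31%. MEFs, prostate and eyes thus held the highest counts, and at a fold of 1.5 the balance turned to 7 higher and 9 lower in MEFs and 6 and 9 in eyes. In brain 3 of 26 were higher and 0 lower, against 0.909% and 2.25% of all genes. In spleen 3 of 33 were higher and 0 lower, against 2.13% and 1.51%. In liver 0 of 23 were higher and 4 lower, against 1.07% and 0.904%. The members past 2-fold were thus all higher in brain and spleen and all lower in liver, but at a fold of 1.5 liver had 4 higher and 5 lower and spleen 5 and 1, and without the level minimum brain had 4 higher and 2 lower. In heart none of 26 members was past 2-fold in either direction, where 0.679% of all genes were higher and 1.09% lower. In testes 1 of 71 was higher and 0 lower, against 0.915% and 1.89%. The counts depend on the 0.1 TPM added before the ratio: with 1 TPM added, no member passed 2-fold in MEFs or testes and 1 each in brain, eyes, liver, prostate and spleen. A level minimum of 1 TPM left 1 lower in liver, 1 higher in spleen and 3 higher in prostate, while the counts of the other tissues moved less. These same contrasts were used to choose the regions, so nothing is read from a member share that exceeds the share of all genes.

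The median log2 ratio of the members lay between -0.02 in MEFs and 0.20 in testes and prostate. Split by cluster it diverged in MEFs, with 0.24 over 20 chromosome 2 members and -0.65 over 17 chromosome 4 members. Liver diverged further, with 0.19 over 15 chromosome 2 members and -0.98 over 8 chromosome 4 members. In testes the order was the other way, with 0.04 over 21 chromosome 2 members and 0.27 over 50 chromosome 4 members. Among the genes named Zfp outside the regions, of which 299 to 364 by tissue were above 0.5 TPM, none passed 2-fold in eyes, heart, liver, prostate or spleen, 1 was higher and 1 lower in MEFs, 1 was lower in brain and 2 were lower in testes.

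**Figure D2:**
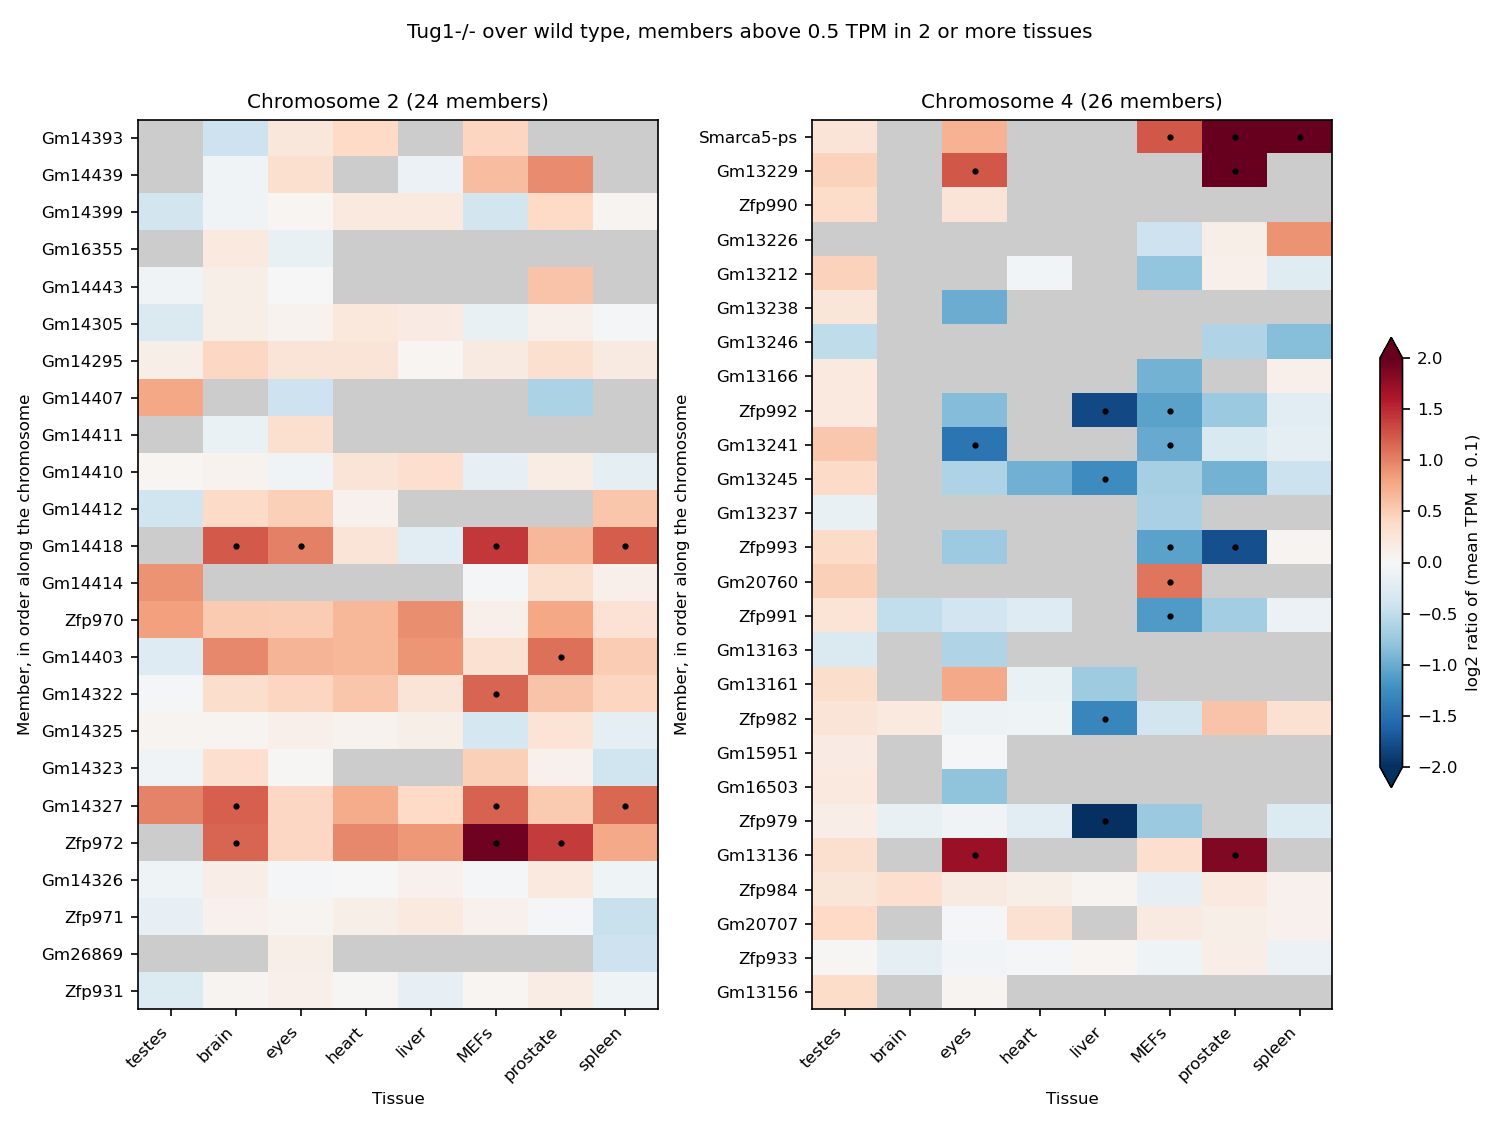
Colours give the log2 ratio of Tug1-/- to wild-type mean TPM (with 0.1 TPM added) for members above 0.5 TPM in at least 2 tissues, 24 on chromosome 2 (left) and 26 on chromosome 4 (right), one row per member in chromosomal order and one column per tissue. Grey marks a tissue where the member was not listed or below 0.5 TPM, and dots mark values past 2-fold. All dotted values of chromosome 2 are red and lie between Gm14418 and Zfp972, where the rows of Gm14325 and Gm14323 are pale. Chromosome 4 has blue dotted values between Zfp992 and Zfp979 and red ones at Smarca5-ps, Gm13229, Gm20760 and Gm13136.

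The 5 higher members of chromosome 2 started within 516 kb, from Gm14418 at 177387124 to Zfp972 at 177903340, a stretch that held 14 of the 51 members and 12 that passed 0.5 TPM somewhere. Gm14418, a protein-coding gene with 8 predicted C2H2 fingers, passed 2-fold in 4 tissues. Its mean levels in wild-type and Tug1-/- samples were 2.71 and 6.48 TPM in brain, 2.21 and 4.56 TPM in eyes, 0.919 and 2.61 TPM in MEFs and 0.329 and 0.892 TPM in spleen. The log2 ratios were 1.23, 1.01, 1.41 and 1.21. In prostate it stood at 0.569 and 0.960 TPM, in heart at 0.904 and 1.10 TPM, in liver at 0.705 and 0.591 TPM, and in testes at 0.250 and 0.478 TPM, below the level minimum. Liver was therefore the only tissue with a lower Tug1-/- mean for Gm14418.

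Zfp972, at the other end of the stretch, is annotated as protein-coding, but none of its transcripts held a complete C2H2 finger by the pattern used. Wild-type and Tug1-/- means were 0.280 and 1.36 TPM in MEFs, 0.908 and 2.56 TPM in prostate and 0.564 and 1.38 TPM in brain, with log2 ratios of 1.94, 1.40 and 1.16. The remaining tissues also had higher Tug1-/- means, from 0.627 and 1.32 TPM in heart and 0.911 and 1.75 TPM in liver to 1.81 and 3.14 TPM in spleen, 0.903 and 1.24 TPM in eyes and 0.264 and 0.424 TPM in testes. These levels rest on few reads. The authors' mean normalised count of Zfp972 over all libraries of a tissue was 2.88 in brain, 7.32 in MEFs and 17.6 in prostate.

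Gm14327, on the other strand, overlaps Zfp972 by 2445 bases, and since strand in counting is not stated their reads may not be separate there. It had a Tug1-/- mean above the wild-type mean in all 8 tissues. The values were 1.35 and 3.24 TPM in brain, 0.624 and 1.53 TPM in MEFs and 0.316 and 0.827 TPM in spleen, with log2 ratios of 1.20, 1.17 and 1.16. It was most abundant in heart, at 4.52 and 7.63 TPM, and stood at 3.15 and 4.16 TPM in liver, 0.963 and 1.31 TPM in eyes and 0.506 and 0.773 TPM in prostate. Only 32.6% of the stretches of its transcripts as long as 1 sequencing read occurred in no other annotated gene, so most of Gm14327 cannot be told from its relatives by a single read.

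Gm14403 was the most abundant over tissues of the members past 2-fold in the stretch, and Zfp970, which was not past it, was more abundant still. Both belong to the broadly expressed group. Zfp970, with 14 fingers, had a Tug1-/- mean above the wild-type mean in all 8 tissues without passing 2-fold in any. Its levels were 20.0 and 38.0 TPM in liver, 19.6 and 31.0 TPM in heart, 15.4 and 22.0 TPM in brain and 13.7 and 19.5 TPM in eyes. Prostate held 7.33 and 12.6 TPM, spleen 7.97 and 9.74 TPM, MEFs 5.97 and 6.45 TPM and testes 2.70 and 4.88 TPM. The log2 ratios ran from 0.11 in MEFs to 0.93 in liver, where its mean normalised count was 1130. Zfp970 is also among the more distinguishable members, with 82.9% of its read-length stretches unique.

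Gm14403, with 9 fingers and 95.4% unique stretches, was likewise highest in liver and lowest in testes. It stood at 19.2 and 35.4 TPM in liver, 13.1 and 21.2 TPM in eyes, 11.7 and 22.7 TPM in brain and 11.1 and 17.8 TPM in heart. Prostate, at 2.55 and 5.61 TPM, was the tissue past 2-fold (log2 ratio 1.11). Spleen held 3.50 and 5.02 TPM and MEFs 2.81 and 3.50 TPM. Testes differed from the rest in sign, with 0.783 and 0.640 TPM. Gm14322, chosen after its values were seen, passed 2-fold in MEFs with 1.98 and 4.56 TPM (log2 ratio 1.17) and lay between -0.03 and 0.57 in the other tissues. Gm14322 and Gm14418 share sequence: 72.6% of the read-length stretches of Gm14322 also occur in Gm14418.

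**Figure D3:**
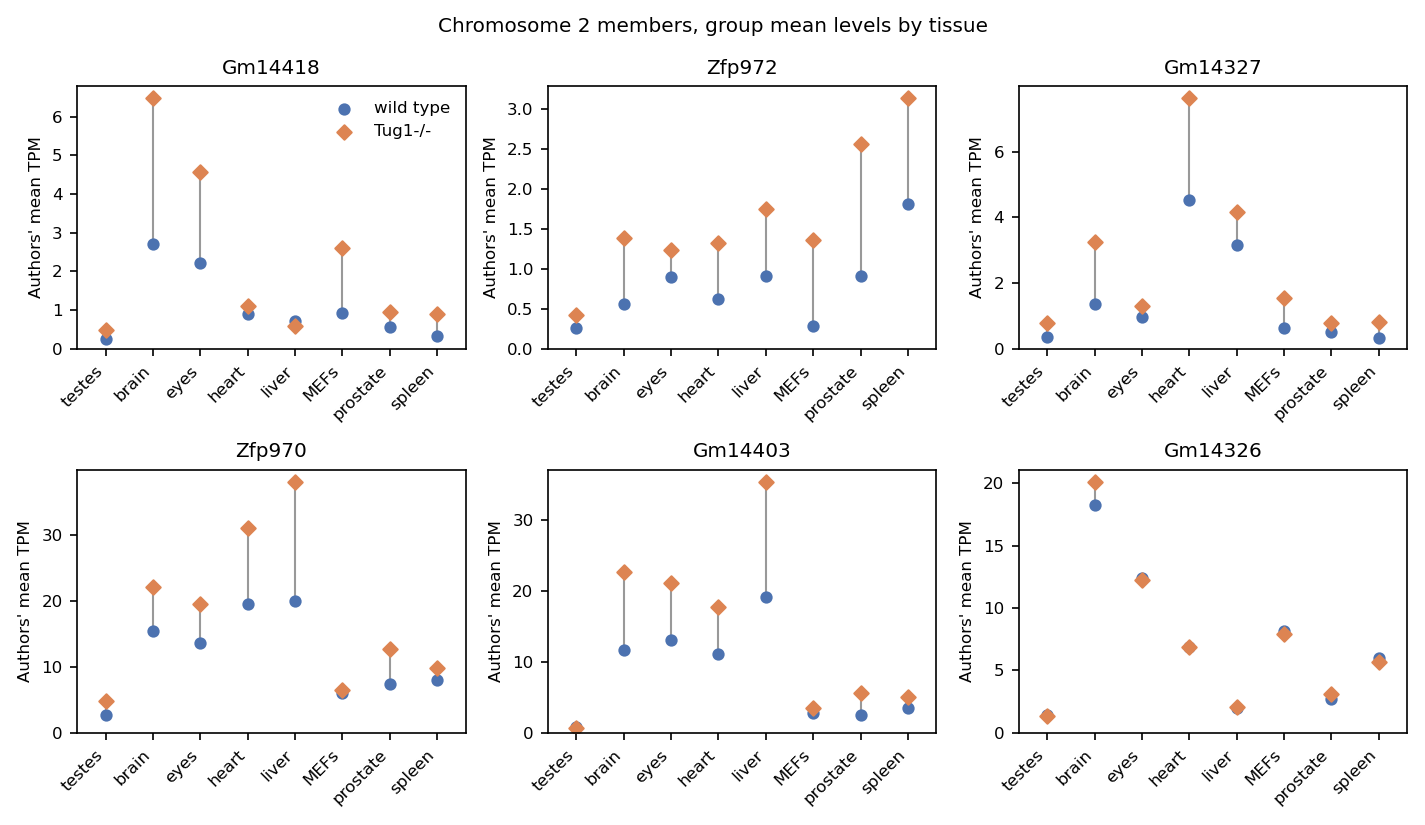
Each panel gives one chromosome 2 member, with circles for the wild-type and diamonds for the Tug1-/- group mean (TPM, linear axis from 0) in each of the 8 tissues, joined by a line. Diamonds lie above circles in 8 of 8 tissues for Gm14327 and Zfp970, while the 2 nearly coincide for Gm14326. The tables hold no single samples, so no error is drawn.

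Several members beside and between the higher ones were level. Gm14325, the most abundant chromosome 2 member over tissues and a gene with 14 fingers, lies inside the stretch. Its levels were 33.3 and 34.6 TPM in brain, 25.2 and 27.1 TPM in eyes, 19.6 and 15.3 TPM in MEFs and 14.5 and 12.9 TPM in spleen, and its log2 ratios ran from -0.35 to 0.27. Gm14326, which starts at 177935993, just after Zfp972, stood at 18.3 and 20.1 TPM in brain, 12.4 and 12.3 TPM in eyes and 6.91 and 6.90 TPM in heart. Its log2 ratios over 8 tissues lay between -0.08 and 0.20.

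Zfp971 and Zfp931 close the cluster and were also level in most tissues. Zfp971 held 19.9 and 21.1 TPM in brain and 9.61 and 10.5 TPM in heart, with its most negative log2 ratio, -0.44, in spleen (17.8 and 13.1 TPM). Zfp931 held 30.4 and 31.7 TPM in brain, 14.4 and 15.5 TPM in eyes and 8.15 and 9.02 TPM in prostate, and its log2 ratios ran from -0.28 in testes to 0.14 in prostate. Zfp931 shares only 2.89% of its stretches with any single other gene. Zfp931 is the last member inside the limits, and the first gene named Gm or Zfp beyond them, Gm14292, ranged from 0.228 to 4.94 TPM in wild-type and from 0.454 to 13.6 TPM in Tug1-/- means. At the near limit Gm14444, the first inside, reached at most 0.129 TPM in wild type, and Gm14616, the last outside, at most 3.51 TPM.

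On chromosome 4, 4 of the 5 higher members were processed pseudogenes, counting Smarca5-ps, which is annotated as a transcribed one. Smarca5-ps, a copy of the gene for the chromatin remodelling ATPase Smarca5, had the widest range of all members. Wild-type and Tug1-/- means were 0.310 and 3.69 TPM in spleen, 0.636 and 3.84 TPM in prostate and 1.20 and 2.97 TPM in MEFs, with log2 ratios of 3.21, 2.42 and 1.24. In eyes they were 2.51 and 4.12 TPM and in testes 4.35 and 5.23 TPM, with log2 ratios of 0.70 and 0.26. Heart, at 0.325 and 0.644 TPM, liver, at 0.033 and 0.196 TPM, and brain, at 0.110 and 0.223 TPM, lay below the level minimum. In spleen, prostate, eyes and MEFs the Tug1-/- means thus lay between 2.97 and 4.12 TPM, whereas the wild-type means ran from 0.310 to 2.51 TPM. The mean normalised count of Smarca5-ps was 98.9 in spleen, 80.3 in prostate and 69.0 in MEFs, and 62.0% of its read-length stretches were unique.

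Gm13229, a processed pseudogene on the other strand and the next member past 0.5 TPM, was higher as well. It stood at 0.146 and 1.21 TPM in prostate (log2 ratio 2.41), 1.30 and 3.20 TPM in eyes (1.24) and 0.988 and 1.40 TPM in testes (0.47). Its spleen means, 0.166 and 0.572 TPM, were below the level minimum. Its counts were low, with a mean normalised count of 2.52 in prostate and 10.6 in eyes. Gm13136, another processed pseudogene near the far end of the region at 147735477, held 0.793 and 2.86 TPM in eyes and 0.164 and 0.847 TPM in prostate, with log2 ratios of 1.73 and 1.85. It lay at 0.529 and 0.693 TPM in MEFs and at 2.03 and 2.57 TPM in testes. Gm13136 and Gm13135 share 35.9% of the stretches of Gm13136.

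A pair of further members, Gm20760 and Gm21411, both chosen after their values were seen, passed 2-fold in a single tissue. Gm20760 was higher in MEFs, at 0.398 and 0.941 TPM (log2 ratio 1.07, mean normalised count 4.49). Gm21411, annotated as protein-coding, was the only member past 2-fold in testes, at 0.831 and 1.86 TPM (log2 ratio 1.08).

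The 8 lower members of chromosome 4 started between Zfp992 at 146449023 and Zfp979 at 147611937, a stretch of 1163 kb with 33 members. Of the 26 of these above 0.5 TPM in some tissue, 16 were past 2-fold in neither direction, and Gm21411 and Gm20760, both higher, also lie in it. Gm26573, a member listed in 2 tissues and below 0.5 TPM in both, overlaps Zfp992, Gm13241, Gm13245, Zfp993 and Gm20760 on the opposite strand and Gm21411 on the same strand. Zfp991 overlaps Gm26624 on the same strand. Reads of such genes cannot be told apart where exons coincide on 1 strand, nor, if strand was not used in counting, on opposite strands. Of the 8 lower members, 5 were annotated as protein-coding and 3 as processed pseudogenes. Zfp992, with 11 fingers, stood at 0.852 and 0.173 TPM in liver and 4.95 and 2.29 TPM in MEFs, with log2 ratios of -1.80 and -1.08. It was also lower in eyes (1.71 and 0.893 TPM), prostate (3.71 and 2.17 TPM) and spleen (2.00 and 1.70 TPM), below 2-fold. Testes, where Zfp992 was most abundant, differed in sign, with 14.3 and 16.4 TPM (log2 ratio 0.20).

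Zfp993, which carries 2 predicted fingers, was lower in MEFs, prostate and eyes as well. Its means were 1.12 and 0.261 TPM in prostate, 4.18 and 1.94 TPM in MEFs and 0.912 and 0.509 TPM in eyes, with log2 ratios of -1.76, -1.07 and -0.73. In testes it held 11.3 and 14.8 TPM (log2 ratio 0.39) and in spleen 1.09 and 1.14 TPM. Zfp991, chosen after its values were seen, stood at 8.94 and 4.02 TPM in MEFs (log2 ratio -1.14) and 20.4 and 24.8 TPM in testes. Zfp993 and Zfp991 are hard to separate, since 68.2% of the read-length stretches of Zfp993 also occur in Zfp991. Zfp992 is more distinct, with 24.7% of its stretches in Zfp991 and 71.6% in no other annotated gene.

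Zfp979 and Zfp982, whose promoters are printed above, were lower in liver only past 2-fold. Zfp979 held 0.938 and 0.158 TPM in liver (log2 ratio -2.01) and 4.71 and 4.07 TPM in heart, 1.83 and 1.05 TPM in MEFs and 8.14 and 8.90 TPM in testes. Zfp982, chosen after its values were seen, held 8.08 and 3.20 TPM in liver (log2 ratio -1.31), against 4.40 and 4.15 TPM in heart, 3.54 and 3.30 TPM in eyes and 12.2 and 14.7 TPM in testes. Zfp982 is nearly free of shared sequence, with 97.0% of its stretches unique and a mean normalised count of 151 in liver. The liver marker Cyp7a1 differed in the same means, at 39.2 and 83.3 TPM, and its part in these differences was not tested.

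The processed pseudogenes Gm13241, Gm13245 and Gm13141 were lower as well. Gm13241 held 2.80 and 0.954 TPM in eyes and 2.69 and 1.29 TPM in MEFs (log2 ratios -1.46 and -1.01), and 8.63 and 12.5 TPM in testes. Gm13245 held 0.808 and 0.280 TPM in liver (log2 ratio -1.26), 18.0 and 9.27 TPM in prostate (-0.95) and 1.03 and 0.484 TPM in heart (-0.96), and 12.5 and 16.4 TPM in testes. Gm13141 held 1.70 and 0.579 TPM in eyes (log2 ratio -1.40). Gm13241 and Gm13245, like Zfp992, had a higher Tug1-/- mean in testes and a lower one in each other tissue where they were above 0.5 TPM. Counts were low: the mean normalised count was 2.55 for Gm13245 in liver, 6.99 for Gm13141 in eyes and 19.7 for Gm13241 in eyes.

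**Figure D4:**
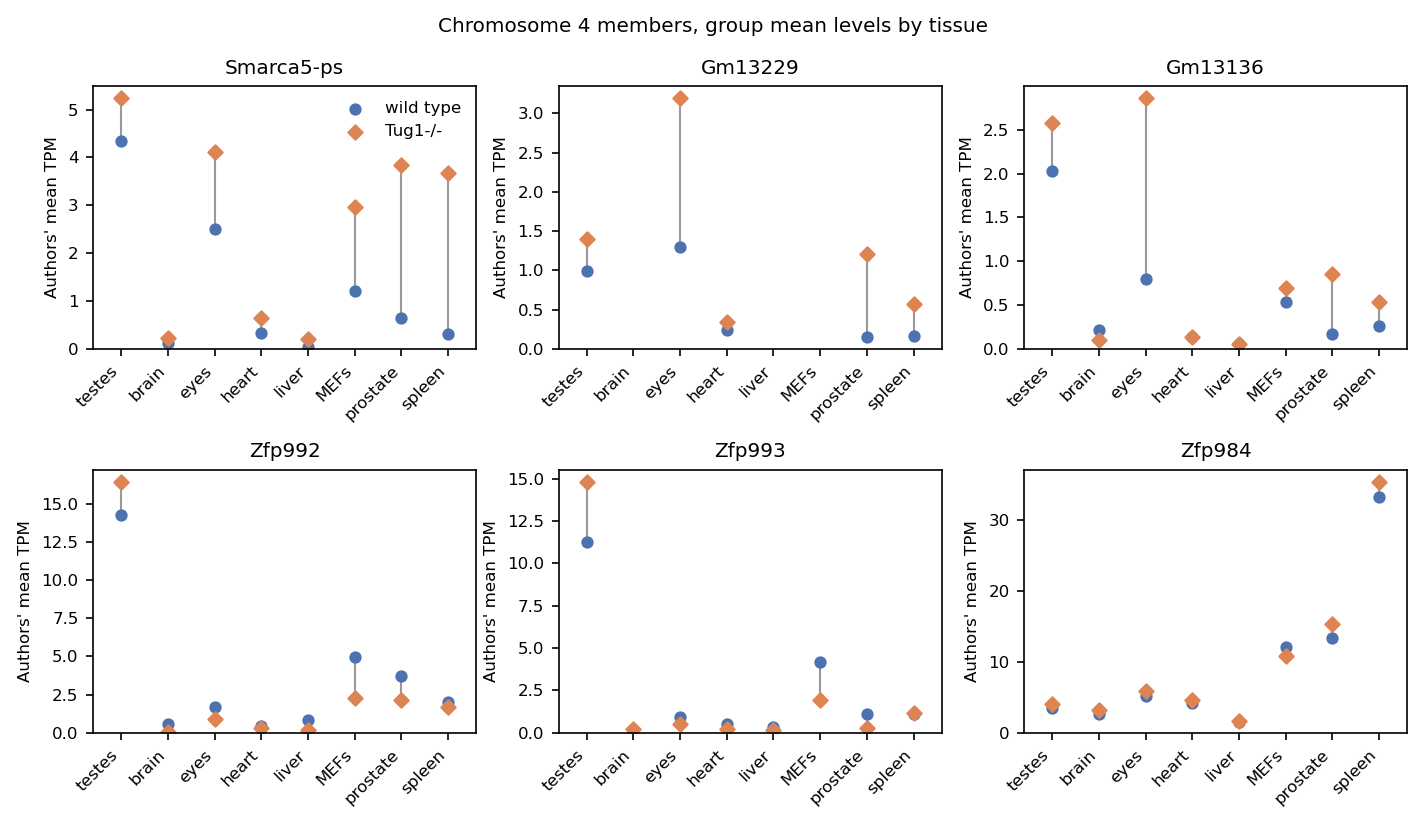
Each panel gives one chromosome 4 member, with circles for the wild-type and diamonds for the Tug1-/- group mean (TPM, linear axis from 0) by tissue. The Tug1-/- mean of Smarca5-ps was 3.69 TPM in spleen against 0.310 TPM in wild type, Zfp992 and Zfp993 were lower in Tug1-/- MEFs and prostate but not in testes, and Zfp984 was nearly level. A tissue without points did not list the gene.

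Zfp984 and Zfp933, at the end of the chromosome 4 region, were expressed in all 8 tissues and level. Zfp984, with 11 fingers, held 33.2 and 35.3 TPM in spleen, 13.4 and 15.3 TPM in prostate, 12.1 and 10.8 TPM in MEFs and 1.57 and 1.65 TPM in liver, with log2 ratios from -0.16 to 0.33. Zfp933, with 12 fingers and no read-length stretch shared with another gene, held 19.7 and 17.3 TPM in brain, 17.4 and 16.8 TPM in eyes and 12.8 and 11.7 TPM in spleen, with log2 ratios from -0.19 to 0.13. At the limits of the region, Gm13024, the first inside, had 0.0916 TPM in wild-type eyes, the 1 tissue that listed it, and Gm13156, the last inside, at most 3.67 TPM in wild type. Gm13178, the last outside, had 0.123 TPM in the 1 tissue that listed it and Gm13054, the first beyond, at most 3.55 TPM.

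In testes the members could be followed into the rescue mice. Rescue mice differ from Tug1-/- mice by the inserted transgene and the rtTA allele, and they are described as fed doxycycline. The parts of Tug1 RNA, insertion, allele and diet in a difference between these groups cannot be told apart. The chromosome 2 members summed to 28.6 TPM in wild type, 31.8 TPM in Tug1-/- and 26.7 TPM in rescue testes. The chromosome 4 members summed to 232, 282 and 261 TPM. Wild type was thus the lowest of the 3 sums on chromosome 4 and rescue the lowest on chromosome 2. Of the 50 chromosome 4 members above 0.5 TPM, 43 had a Tug1-/- mean above the wild-type mean, with a median log2 ratio of 0.27, beside 15300 of 25358 over all genes and 257 of 359 other genes named Zfp. Rescue and Tug1-/- testes are both set against wild type or each other here, so the comparisons share groups and are given side by side.

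Rescue over Tug1-/- testes left 0 of 70 members higher and 2 lower past 2-fold, where 0.613% and 1.46% of all genes were. Both were chromosome 2 members whose Tug1-/- mean lay above the wild-type mean, short of 2-fold once 0.1 TPM was added. The Gm14327 means themselves differed 2.27-fold. Zfp970 stood at 2.70 TPM in wild type, 4.88 TPM in Tug1-/- and 2.08 TPM in rescue testes (log2 ratio of rescue over Tug1-/- -1.19). Gm14327 stood at 0.344, 0.779 and 0.298 TPM in the same order (-1.15). Rescue over wild type left none of 66 members past 2-fold in either direction, where 0.888% of all genes were higher and 2.87% lower.

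Other members of the testes varied in where the rescue mean lay. Gm21411 held 0.831 TPM in wild type, 1.86 TPM in Tug1-/- and 1.49 TPM in rescue testes. Smarca5-ps held 4.35, 5.23 and 5.38 TPM, and Zfp991 20.4, 24.8 and 22.9 TPM. Rescue means of all 3 lay closer to the Tug1-/- than to the wild-type mean. Gm26763, a long intergenic RNA listed in testes alone and the member with the highest level of all, held 40.0, 45.6 and 38.0 TPM, with the rescue mean again below wild type. Gm13228 at 1.56, 2.70 and 1.75 TPM, Gm14414 at 0.527, 1.07 and 0.663 TPM and Zfp534 at 1.47, 2.28 and 1.62 TPM, all 3 chosen after their values were seen, had rescue means nearer the wild-type mean. The other extremes of rescue over Tug1-/- were Gm13222, lower at 0.964 and 0.467 TPM (log2 ratio -0.91), and Gm13246, Gm13243 and Gm14399, higher at 0.74, 0.50 and 0.50 on the log2 scale. None was past 2-fold once 0.1 TPM was added, although the Gm13222 means themselves differed 2.07-fold. Gm13222 has an annotated transcript length that allows only 38 read-length stretches, so its level rests on a short target.

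**Figure D5:**
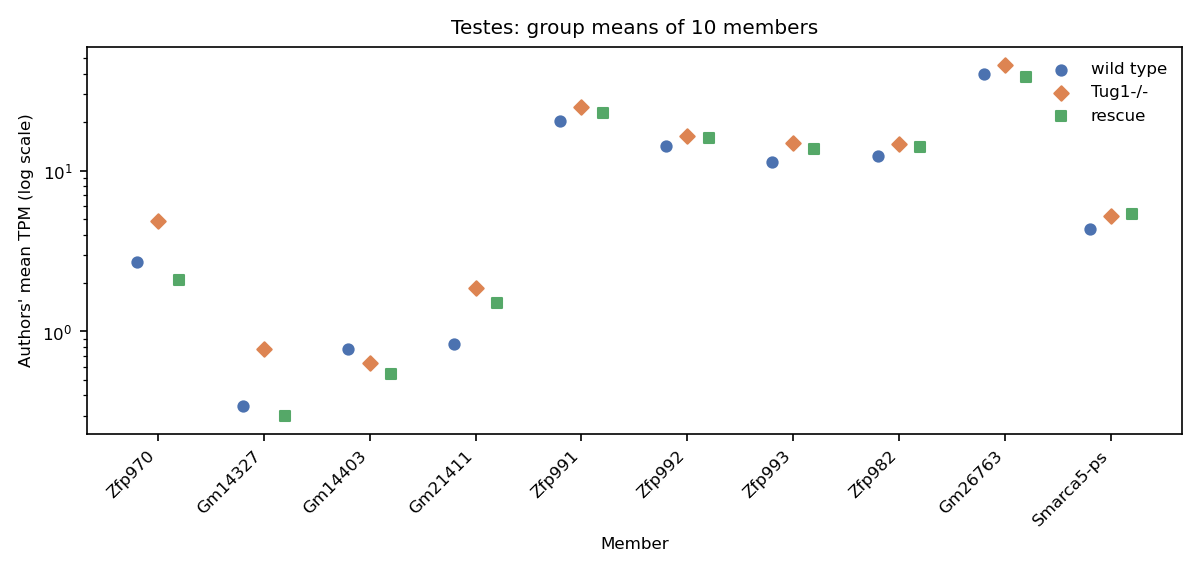
Points give the group mean level (TPM, log scale) of 10 members in wild-type, Tug1-/- and rescue testes. For Zfp970 and Gm14327 the rescue mean lies below the wild-type mean (2.08 against 2.70 TPM and 0.298 against 0.344 TPM), while for Gm21411, Zfp991 and Smarca5-ps it lies nearer the Tug1-/- mean. No error is drawn because the table holds means only.

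A list of 16 genes held cofactors of silencing by KRAB zinc finger proteins, among them Trim28, Setdb1, the heterochromatin proteins Cbx1, Cbx3 and Cbx5 and the DNA methyltransferases, and also Zfp57, itself a KRAB zinc finger protein. None was past 2-fold in any of the 10 comparisons. Over the 8 tissues their log2 ratios ran from -0.50 in eyes to 0.78 in spleen, and the list medians from -0.11 in eyes to 0.13 in heart, against -0.11 and 0.10 for all genes there. Trim28 held 279 and 291 TPM in wild-type and Tug1-/- testes, and Setdb1 37.4 and 39.2 TPM.

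The coding potential and the sharing of sequence varied within both clusters. At least 1 complete C2H2 finger was found in 61 members, including 47 of the 51 protein-coding ones, which had a median of 11 fingers and up to 25 in Gm14295. The share of read-length stretches found in no other annotated gene had a median of 43.0% on chromosome 2 and 72.8% on chromosome 4. It ranged from 0% to 100%, with 12 members fully unique and 48 under 50%. Since only uniquely mapped reads were counted, a member's level covers the part of it that differs from its relatives, and members under 50% are the least certain. Among the higher and lower members, Gm14322, Gm14327, Zfp991, Zfp993, Gm13241 and Gm13136 are of that kind, at 27.4%, 32.6%, 29.9%, 28.4%, 40.7% and 48.2%. Gm14403, Zfp982, Gm20760 and Gm13229 also passed 2-fold and were mostly unique, at 95.4%, 97.0%, 87.8% and 87.1%.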

How the data were processed

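RNA was measured by poly(A)-selected paired-end RNA-seq with 101-base reads. Per the study's methods, the authors aligned reads with STAR to GRCm38, counted uniquely mapped reads per GENCODE vM16 gene with featureCounts, and dropped a gene when no replicate had 3 reads. CASAVA 1.8.2 and DESeq2 are also named in the submitters' notes. Whether counting used strand is not stated. The deposited TPM values are the authors' means per group, and the table of tissues other than testes adds the authors' mean normalised count over all libraries of a tissue. Depth per sample is unknown. The deposited columns of the authors' own comparisons (log2 fold change, p-value and related values) were not used.

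A log2 ratio is that of second to first group mean after adding 0.1 TPM. Genes with a mean over both groups under 0.5 TPM stayed out of counts. Counting was checked on simulated means without noise in which 200 genes were changed well past 2-fold, which checks the code alone. No test was run, since the tables hold no single samples. Members, lists and named genes were chosen with earlier results of these data known. Named genes are Smarca5-ps, the 10 members past 2-fold in most tissues, the 10 with the highest mean wild-type level, the 3 largest and 3 smallest ratios of rescue over Tug1-/-, the 3 widest ranges over tissues, and Tug1. Shared stretches, fingers and annotated types were read from GENCODE vM21 transcripts of GRCm38, and fingers are C2H2 patterns with no stop codon inside. Promoters were aligned locally (Biopython 1.88, match 2, mismatch -1, gap opening -5 and extension -1). Python 3.11.15, numpy 2.4.6, pandas 2.3.3 and matplotlib 3.10.9 were used.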

Additional observations from a re-analysis of the deposited data

How the results depend on the processing

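No paired analysis was possible because the tables hold group means only, and leaving out single replicates was not possible for the same reason, so no count was checked against one library. Counts of members past 2-fold, both directions together, were 10 in MEFs, 6 in prostate, 5 in eyes, 4 in liver, 3 in brain, 3 in spleen, 1 in testes and 0 in heart, with 2 for rescue over Tug1-/- and 0 for rescue over wild type. For each other setting, only counts that differed from these by over 1.5-fold, or that changed to or from 0, are listed. A fold of 1.5 gave 16 in MEFs (7 higher, 9 lower), 15 in eyes (6 and 9), 15 in prostate, 9 in liver (4 and 5), 9 in testes, 6 in spleen, 5 in heart, 7 for rescue over Tug1-/- and 4 for rescue over wild type. Without a level minimum the counts were 11 in prostate, 9 in eyes, 8 in spleen, 7 in liver, 6 in brain, 4 in heart, 3 in testes and 3 for rescue over wild type. A level minimum of 1 TPM left 3 in prostate, 1 in liver, 1 in spleen and 1 for rescue over Tug1-/-. Adding 1 TPM left 0 in MEFs, 0 in testes, 0 for rescue over Tug1-/-, and 1 each in brain, eyes, liver, prostate and spleen, while adding 0.01 TPM gave 3 in testes and 2 in heart. Centring each comparison on the median of all genes gave 1 in heart. Only members named Zfp gave 4 in MEFs, 2 in prostate, 1 in brain, 0 in eyes, 0 in spleen, 0 in testes and 1 for rescue over Tug1-/-, and protein-coding members alone gave 3 in prostate and 1 in eyes. Fewer members or a smaller required fold account for the last kinds of change by construction, and a pseudocount of 1 TPM shrinks ratios of genes at these levels. Of 29 values past 2-fold among the named genes, 29 stayed past it with 0.01 TPM added and with centring, 4 with 1 TPM added, and none changed sign.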

Other observations

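The regions also hold 22 genes with other names, and none of them was past 2-fold above 0.5 TPM in any of the 8 tissues. Znf41-ps, an unprocessed pseudogene of the chromosome 4 region, holds 56.7% of the read-length stretches of Zfp991. Its wild-type and Tug1-/- means were 8.05 and 4.84 TPM in MEFs (log2 ratio -0.72), 2.27 and 1.31 TPM in eyes (-0.75) and 25.1 and 29.3 TPM in testes (0.22). Fv1, a retrovirus restriction gene near the end of the chromosome 4 region, held 12.5 and 13.8 TPM in testes, 21.4 and 20.9 TPM in brain and 19.9 and 18.9 TPM in spleen, with log2 ratios from -0.07 to 0.37 over the 8 tissues. Rex2 held 0.927 and 1.05 TPM in testes.

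All values used are group means without spread, and the authors' own comparisons were left out, so no difference here is set against the variation between animals. Prostate rests on 2 Tug1-/- samples. Several members past 2-fold had a mean normalised count under 10. Where members share sequence, reads of close copies are the least certain, and counting by strand is not stated.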
